A study of Mus musculus with 6 samples.

Results

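The first 8 genes of the mouse beta protocadherin cluster, Pcdhb1 to Pcdhb8, were followed in neural stem cells with and without Smchd1. They were chosen by name and position, as the part of the cluster that lies nearest its upstream end, and were matched to the deposited tables by Entrez gene ID. All 8 were found among the 27179 genes of the tables, and all 8 passed the filter on low counts that left 14207 genes to test. The filter asks for a low level in at least 3 libraries of either group. Pcdhb1 to Pcdhb4 did not reach it in all wild type libraries and passed with the help of null libraries. The cells were male neural stem cells derived from E14.5 embryo brains (strain C57BL/6 x FVB/N), and all cultures were grown with EGF and bFGF at 20 ng/ml each. One group of 3 libraries was Smchd1 wild-type, and the other group of 3 was homozygous for MommeD1, an Smchd1 allele that the labels call null. The labels name no other allele or agent, and nothing there says whether the 3 libraries of a group came from separate embryos, so p-values measure the spread between these libraries, which may be technical. The comparison asked how the RNA of each gene differed when Smchd1 was lost.

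Clustered protocadherins are cell surface proteins of the cadherin superfamily, encoded in the alpha, beta and gamma clusters that follow each other on the same chromosome. In neurons each cell switches on its own small selection of these genes, and the proteins bind like to like between cells, which lets a neuron tell its own branches from those of others. Each beta gene has its own promoter and carries its whole protein in one large exon, without the shared last exons of the alpha and gamma genes. The promoters are kept silent by DNA methylation and repressive chromatin in cells that do not use them, and are reached by CTCF and cohesin when chosen. SMCHD1 is a chromatin protein of the SMC family that takes part in such silencing.

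The 8 genes lie on the plus strand of chromosome 18 within 92.6 kb of the GRCm38 (mm10) assembly. By the RefSeq table they run from 37264998 to 37267454 (Pcdhb1), 37294840 to 37297614 (Pcdhb2), 37300799 to 37304585 (Pcdhb3) and 37307455 to 37311173 (Pcdhb4). The other 4 run from 37320381 to 37323913 (Pcdhb5), 37333860 to 37337438 (Pcdhb6), 37341702 to 37345207 (Pcdhb7) and 37355271 to 37357610 (Pcdhb8). Pcdhb1 stands 27.4 kb away from Pcdhb2, and Pcdhb8 stands 43.2 kb away from Pcdhb9, while neighbours among Pcdhb2 to Pcdhb8 are 2.87 to 10.1 kb apart. The set is therefore bounded on its downstream side by the widest gap of the cluster.

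Total counts ran from 18608881 to 23253367 per library. CPM stands for counts per 1 M of effective depth, the library size after TMM scaling. Smchd1 itself averaged 254 ± 20.0 CPM in wild-type libraries against 29.7 ± 1.68 CPM in the null ones (SD, n = 3). Wild type replicate 3 stood apart: 1 record took 44.6% of its counts, leaving it 10.1 M counts of effective depth where the others had 21.3 to 25.8 M. Its sample name, numbered 14, also falls in the range of the null libraries (11 to 13), while wild type replicates 1 and 2 bear numbers from a higher range. What these numbers mean is not stated, so results are also given without this library and with the name range as an added term. Neural stem cell markers were present in every library, with summed levels of 5886 to 6215 CPM in wild type against 5829 to 5990 CPM in null.

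All 8 genes were scarce in wild type cells and higher in every null library. Pcdhb1, the first gene of the cluster, was the rarest. It had 0, 0 and 1 counts in wild type replicates 1, 2 and 3 against 14, 12 and 21 counts in null replicates 1, 2 and 3. The ratio of its pooled counts per effective depth, null over wild type, was 42.9, with an exact binomial 95% interval of 7.33 to 1729 (counting error only). Pcdhb1 is thus barely above detection in the null cells and at its limit in wild type, and its fitted log2 fold change of 4.98 ± 0.77 (SE; edgeR adjusted p = 0.0294) rests on a single wild type count.

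Pcdhb2 stood at 0.465, 0.469 and 1.39 CPM in wild type and at 8.08, 7.36 and 7.85 CPM in null. Wild type replicate 3 was its highest wild type library, and no null library came near it. Its log2 fold change, null minus wild type, was 3.56 ± 0.32 (SE; edgeR adjusted p = 0.00174). Pcdhb3 had 0.465, 0.341 and 0.794 CPM in wild type and 5.50, 5.15 and 4.28 CPM in null. This gene was about as rare as Pcdhb2 in wild type, and its groups were likewise apart, with a log2 fold change of 3.35 ± 0.28 (adjusted p = 0.00106). Pcdhb4 had 1.24, 0.725 and 0.992 CPM in wild type and 10.6, 11.7 and 8.78 CPM in null. Its wild type replicate 3 lay between the other two. Pcdhb4 had the smallest p of the set, with a log2 fold change of 3.38 ± 0.22 (adjusted p = 0.000405), and the largest gain in level, 9.35 CPM.

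Pcdhb5 was the most abundant of the 8 in wild type, with 1.32, 1.96 and 2.18 CPM there and 9.26, 10.3 and 10.1 CPM in null. Its log2 fold change was 2.48 ± 0.19 (adjusted p = 0.000891). Pcdhb6 had 0.969, 0.597 and 1.89 CPM in wild type and 7.28, 6.23 and 9.27 CPM in null. Relative to its mean, its SD over the null libraries (20.3%) was the widest after that of Pcdhb1 (27.0%). The log2 fold change of Pcdhb6 was 2.89 ± 0.34 (adjusted p = 0.0069). Pcdhb7 had 1.09, 1.41 and 1.98 CPM in wild type and 5.64, 4.78 and 5.22 CPM in null. On the log2 scale it rose least of the 8, and the fitted difference was 1.88 ± 0.22 (adjusted p = 0.0069). Pcdhb8, the last of the set, had 0.775, 0.853 and 1.89 CPM in wild type and 4.75, 4.87 and 5.53 CPM in null. Wild type replicate 3 was again its highest wild type library, and the log2 fold change was 2.26 ± 0.29 (adjusted p = 0.011).

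**Figure D1:**
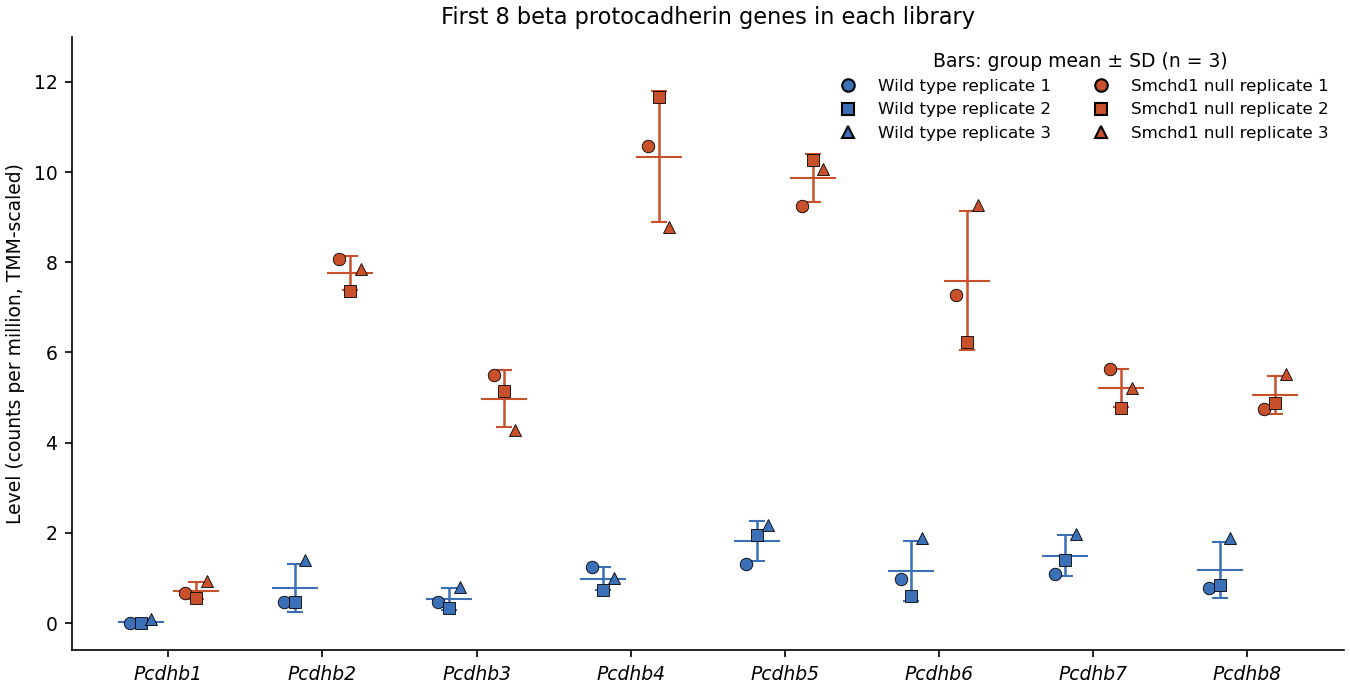
Level of each of the 8 genes in CPM in the 3 wild type libraries (blue) and the 3 Smchd1 null libraries (red), with marker shape for the replicate number and bars for the group mean ± SD. Every null library lies above every wild type library for each gene; Pcdhb1 stays under 1 CPM in all 6 libraries.

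The edgeR quasi-likelihood test called 8 of the 8 genes higher in null (adjusted p under 0.05 over all tested genes) and 0 lower, where 0.507% of all tested genes were called higher and 0.577% were called in either direction. The groups did not overlap for 8 of 8, against 11.4% of all tested genes not overlapping in that direction. For Pcdhb1 to Pcdhb4 the level in null was also a condition of being tested, so these counts are not free of the filter. The median log2 fold change of the 8 was 3.12, and that of all tested genes was 0.0013. By p value the genes ranked between 5 (Pcdhb4) and 63 (Pcdhb1) of 14207. Their summed level was 7.96 ± 2.82 CPM in wild type against 51.5 ± 0.56 CPM in null (mean ± SD, n = 3). In RNA from a whole culture, more cells that use a gene and more RNA per cell cannot be told apart.

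Per length, the 8 genes formed different orders in the 2 groups. On the scale of CPM per kb of deposited gene length (RPKM), the wild type levels were highest for Pcdhb5 (0.515 ± 0.127), Pcdhb8 (0.50 ± 0.265), Pcdhb6 (0.496 ± 0.286) and Pcdhb7 (0.426 ± 0.13), followed by Pcdhb2 (0.279 ± 0.192), Pcdhb4 (0.265 ± 0.069), Pcdhb3 (0.141 ± 0.062) and Pcdhb1 (0.013 ± 0.023; mean ± SD, n = 3 throughout). The ranges of neighbours in this wild type order overlapped for every pair except Pcdhb3 and Pcdhb1. Within each of the 3 wild type libraries, though, Pcdhb7 was above Pcdhb2 and Pcdhb4 was above Pcdhb3. In null the RPKM levels were highest for Pcdhb6 (3.28 ± 0.67), Pcdhb2 (2.80 ± 0.13), Pcdhb5 (2.79 ± 0.15) and Pcdhb4 (2.78 ± 0.39), whose ranges overlapped those of their neighbours. Within each of the 3 null libraries Pcdhb6 was above Pcdhb2. Pcdhb8 (2.16 ± 0.18) followed, its range overlapping that of Pcdhb4 but separate from that of Pcdhb7 (1.49 ± 0.12). Pcdhb3 (1.31 ± 0.17) overlapped Pcdhb7 but was below it within each null library, and Pcdhb1 (0.293 ± 0.079) was lowest and separate. By mean level, Pcdhb2 and Pcdhb4 stood below Pcdhb7 and Pcdhb8 in the wild type order and above them in the null order, with overlapping ranges in wild type, and between Pcdhb4 and Pcdhb8 also in null. The deposited length of Pcdhb6 was 2319 bases, against 3579 bases in the RefSeq table, so its place on this scale depends on the length used. The other 7 lengths were the same in both. The longest transcript of Pcdhb8 in the GENCODE M21 annotation had 3334 bases, though, against a deposited 2340. The place of Pcdhb8, also relative to Pcdhb7, thus depends on the length used as well.

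The 8 genes also took a larger part of the cluster's RNA in null. Of the counts of all 22 beta genes, they held 10.1%, 10.1% and 12.8% in wild type replicates 1, 2 and 3, from 1607, 1475 and 885 beta counts. In null they held 23.1%, 23.1% and 23.2% in replicates 1, 2 and 3, from 4772, 4704 and 5025 beta counts. Exact binomial 95% intervals ran up to 15.1% in the highest wild type library and from 21.9% in the lowest null library. The difference was 12.1 percentage points, with p = 0.1 by a two-sided exact permutation test over the libraries, which is the smallest p that 3 against 3 allows. This share is a ratio within a library and does not depend on how libraries are scaled. Summed over Pcdhb9 to Pcdhb22, the level was 63.0 ± 11.8 CPM in wild-type libraries and 171 ± 1.61 CPM with Smchd1 lost, a 2.72-fold difference of means, while that of Pcdhb1 to Pcdhb8 differed 6.47-fold. Among the 14 later beta genes 9 were called higher and 0 lower, with a median log2 fold change of 1.195, where 0.507% of all tested genes were called higher. Those called were Pcdhb22 (1.53 ± 0.09), Pcdhb10 (3.02 ± 0.26), Pcdhb21 (1.30 ± 0.13), Pcdhb12 (2.06 ± 0.21), Pcdhb18 (1.07 ± 0.12), Pcdhb19 (0.98 ± 0.13), Pcdhb11 (3.60 ± 0.44), Pcdhb13 (2.89 ± 0.47) and Pcdhb16 (1.09 ± 0.18). Pcdhb10 to Pcdhb13 thus lay within the range of Pcdhb1 to Pcdhb8 (1.88 to 4.98), so a rise of this size was not confined to those 8. The later genes were uneven in their folds of means. These were 7.32 for Pcdhb10, 10.4 for Pcdhb11, 4.14 for Pcdhb12 and 5.89 for Pcdhb13. They were 2.77 for Pcdhb9, 1.71 for Pcdhb14, 1.14 for Pcdhb15 and 1.17 to 2.86 for Pcdhb16 to Pcdhb22. The 2.72-fold sum pools these unlike genes, so it and the share do not set the 8 apart from Pcdhb10 to Pcdhb13.

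The split of counts among the 8 genes moved as well. Pcdhb2 held 7.36%, 7.38% and 12.4% of the 8 genes' counts in wild type and 15.6%, 14.46% and 15.1% in null. Pcdhb7 held 17.2%, 22.1% and 17.7% in wild type and 10.9%, 9.39% and 10.04% in null. So the share of Pcdhb2 was higher and that of Pcdhb7 lower in each null library than in each wild type library, although both genes rose. Pcdhb1 and Pcdhb3 also had higher shares in null without overlap, and Pcdhb8 a lower one (14.2 ± 2.36% in wild type and 9.80 ± 0.76% in null). The shares of Pcdhb4, Pcdhb5 and Pcdhb6 overlapped between the groups.

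**Figure D2:**
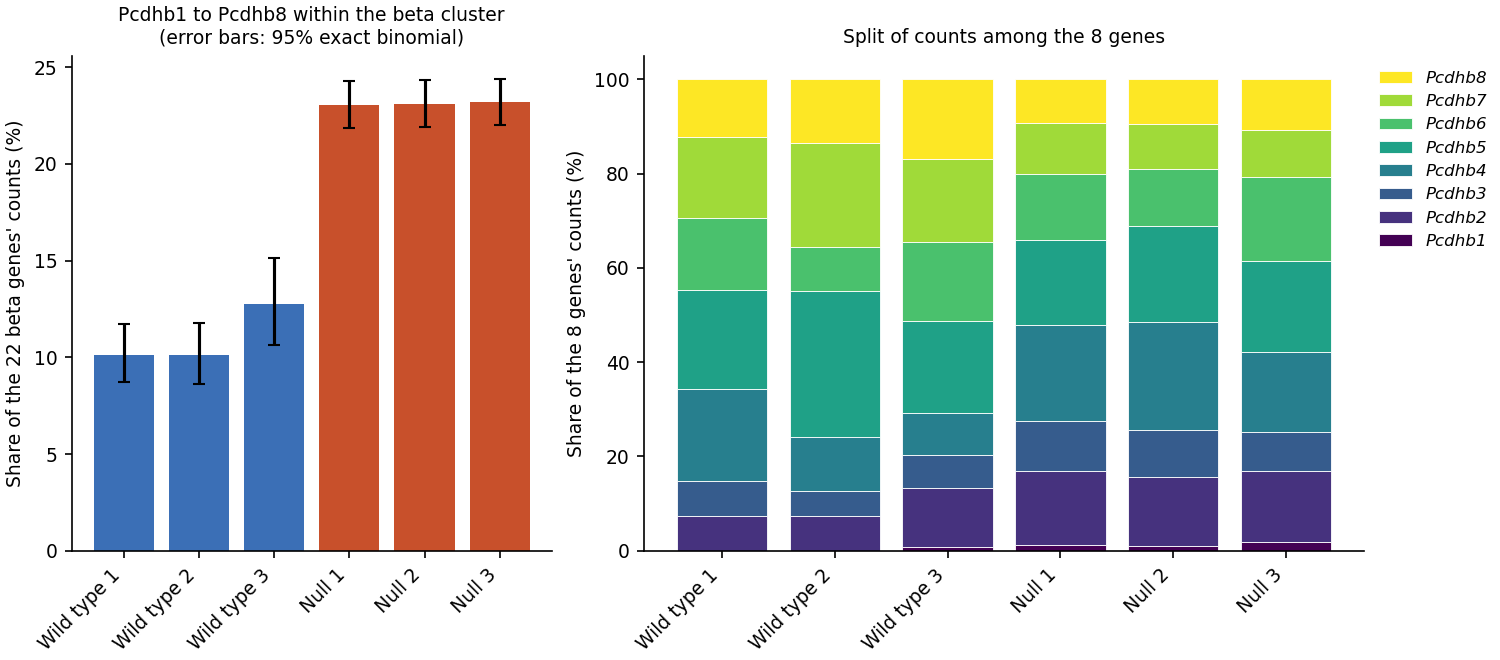
Left, the percentage of all counts of the 22 beta genes that fell on Pcdhb1 to Pcdhb8 in each library, with exact binomial 95% intervals; right, how the counts of the 8 genes were split among them. The left bars stand at 10.1% to 12.8% in wild type and 23.1% to 23.2% in null, and the band of Pcdhb7 on the right is narrower in each null library.

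Within the set, the fold change was larger towards the upstream end. Over the 8 genes the Spearman correlation of log2 fold change with start position was -0.93, and Pearson's r was -0.93. These points are neighbouring genes measured in the same 6 libraries, so the correlation is a description and has no p. Pcdhb2, Pcdhb3 and Pcdhb4 had a median log2 fold change of 3.38, and Pcdhb5 to Pcdhb8 had a median of 2.37. The wild type RPKM level rose with position (rho = 0.76), whereas the null RPKM level had a rho of 0.24 with it. The order held without Pcdhb1 (rho = -0.89) and was weaker with the name range as an added term (rho = -0.81 over the 8 genes). Past the gap after Pcdhb8 the fold changes did not go on falling evenly, since Pcdhb10 and Pcdhb11 had log2 fold changes of 3.02 ± 0.26 and 3.60 ± 0.44. Over all 22 beta genes rho was -0.79.

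**Figure D3:**
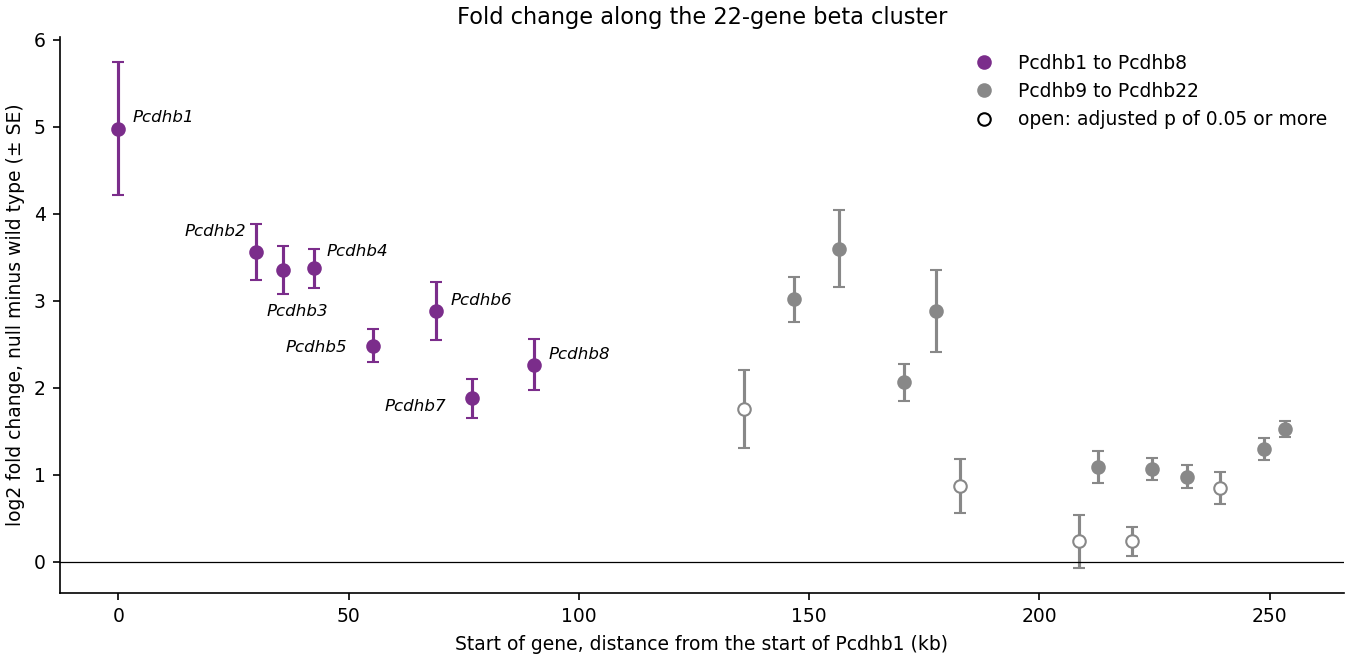
log2 fold change (null minus wild type, ± SE from the edgeR fit) of the 22 beta genes against the distance of each gene's start from that of Pcdhb1, in kb; filled points passed the test. Pcdhb1 to Pcdhb8 (purple) run from 4.98 down to 1.88, with Pcdhb5 and Pcdhb7, and by a small margin Pcdhb3, below the genes that follow them.

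Wild type replicate 3 was the highest wild type library for 7 of the 8 genes, all but Pcdhb4. The share of all tested genes with that library highest was not counted, so this count is not a trait of the 8 genes alone. The pooled ratio of wild type replicate 3 over wild type replicates 1 and 2 was 2.97 for Pcdhb2 (exact binomial 95% interval 1.42 to 6.03), 2.38 for Pcdhb6 (1.30 to 4.22) and 2.32 for Pcdhb8 (1.27 to 4.10). The ratio was 1.95 for Pcdhb3 (0.745 to 4.63), 1.60 for Pcdhb7 (0.916 to 2.69), 1.34 for Pcdhb5 (0.798 to 2.18) and 0.997 for Pcdhb4 (0.45 to 1.99). These intervals cover counting error only, from 8 to 22 counts per gene in wild type replicate 3. That library also differed from the other wild type libraries in many genes. With it in the fit 0.507% of all tested genes were called higher, and without it 19.7% were. Against that library alone, the null means were still 10.4-fold higher for Pcdhb4, 6.27-fold for Pcdhb3, 5.59-fold for Pcdhb2, 4.52-fold for Pcdhb5, 4.03-fold for Pcdhb6, 2.68-fold for Pcdhb8 and 2.63-fold for Pcdhb7.

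With the name range as an added term, the genotype difference is that of the null libraries against wild type replicate 3 alone, so the wild type arm has 1 library, which is assumed to vary like the others. In that fit 7 of the 8 genes were called higher, where 0.542% of all genes were. Pcdhb4 kept its size (log2 fold change 3.37). Smaller values came out for Pcdhb3 (2.64), Pcdhb2 (2.48), Pcdhb5 (2.17), Pcdhb6 (2.01), Pcdhb8 (1.42) and Pcdhb7 (1.39), and Pcdhb1 lost its call (2.79, adjusted p = 0.227). Pcdhb1 also lost its call with the replicate number as a block (adjusted p = 0.0757), which left the other 7 called. Without wild type replicate 3 all 8 were called higher, but so were 19.7% of all tested genes.

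Leaving out any other library lowered the number of calls. It fell to 5 without wild type replicate 1, 6 without wild type replicate 2, and 4, 6 and 4 without null replicates 1, 2 and 3. The share of all tested genes called higher fell as well, from 0.507% to 0.242%, 0.291%, 0.202%, 0.272% and 0.23% in the same order. Pcdhb2, Pcdhb3, Pcdhb4 and Pcdhb5 stayed called each time, with adjusted p of at most 0.0323. Pcdhb1 lost its call without any of these 5 libraries (adjusted p = 0.0995 to 0.209), and so did Pcdhb8 (adjusted p = 0.0726 to 0.123). Pcdhb6 lost its call without wild type replicate 1 (0.0748) or null replicate 1 (0.0684) or 3 (0.0683), and Pcdhb7 without null replicate 1 (0.0808) or 3 (0.0741). In the fits that lost the call, the log2 fold change of Pcdhb1 was 4.31 to 5.12, that of Pcdhb8 was 2.02 to 2.28, that of Pcdhb6 stayed between 2.69 and 2.89, and that of Pcdhb7 between 1.81 and 1.87.

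**Figure D4:**
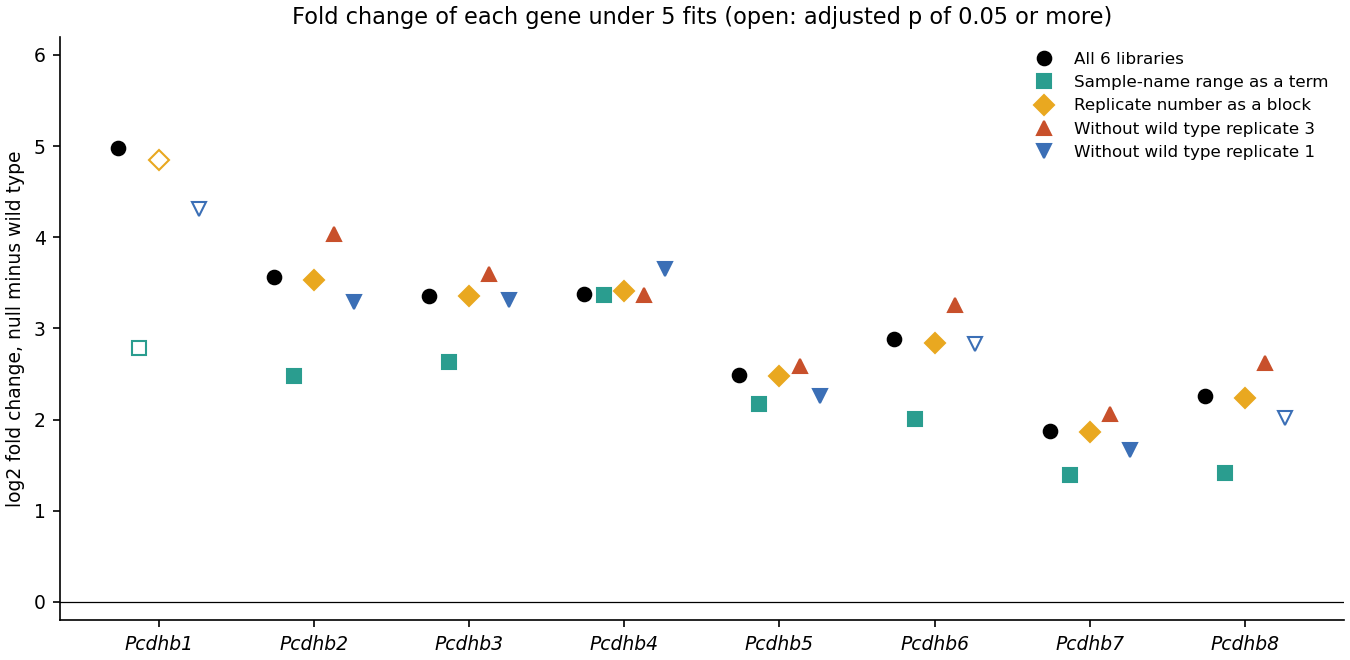
log2 fold change of each gene (null minus wild type) under 5 fits of the same edgeR test; open markers did not pass an adjusted p of 0.05. Pcdhb4 lies at 3.37 to 3.38 with all libraries, with the sample-name term and without wild type replicate 3, while Pcdhb2 falls to 2.48 with the term; Pcdhb1 is not drawn without wild type replicate 3, where it has 0 wild type counts.

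Reads of such similar genes can be misplaced, so the transcripts of the 8 genes were compared with all other genes of the GENCODE M21 annotation. Pcdhb1 shared 0% of its stretches of 50 bases with a transcript of another gene, Pcdhb2 2.1%, Pcdhb3 2.89% and Pcdhb4 3.35%. The share was 5.25% for Pcdhb5, 7.69% for Pcdhb6, 8.57% for Pcdhb7 and 6.12% for Pcdhb8. The longest transcript of each gene was used, of 3729 bases for Pcdhb6 and 3334 for Pcdhb8. The deposited lengths of these genes were shorter (2319 and 2340 bases), and the share within the counted part may be larger. The genes that held the shared stretches were mostly other beta genes. At 100 bases the largest share was 2.31%, for Pcdhb6. Neither the read length nor how multi-mapping reads were treated is given in the sources used here, and the kit does not mark strand. No exon of another annotated gene overlapped the 8 genes. Longer gene models span all of them: Gm37013, Gm37388 and Gm42416 in GENCODE, and Gm37013, Gm38666 and Gm38667 in RefSeq. Gm37013 had 0 counts in each library, and the others were not analysed here.

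Genes known to act on these promoters gave no call apart from Smchd1. Of 28 tested, 0 were called higher and 1 lower, where 0.577% of all tested genes were called in either direction. The median log2 fold change was -0.068. Lrif1, whose protein binds SMCHD1, came next by p (0.68 ± 0.12, adjusted p = 0.0505), and the cohesin subunit gene Smc1a followed (-0.24 ± 0.07, adjusted p = 0.172). Ctcf, the zinc finger factor that binds protocadherin promoters, had 180 ± 1.68 CPM in the wild-type libraries against 171 ± 7.29 CPM. Among genes of partner and downstream proteins, such as the kinase gene Ptk2 and the actin regulators of the WAVE complex, 0 of 19 tested passed. The smallest p values there belonged to the GTPase gene Rhoa (-0.24 ± 0.08), the kinase gene Prkca (-0.17 ± 0.07) and the GTPase gene Rac1 (-0.17 ± 0.07). Genes beside and between the clusters, including Taf7 (-0.24 ± 0.10), Zmat2 (-0.17 ± 0.06) and Cd14 (-0.94 ± 0.39), also gave 0 calls among 15 tested, with a median log2 fold change of -0.087. At a share of 0.577%, lists of these sizes would mostly hold no call, so the lack of calls says little about these genes. Before adjustment, 2642 of all tested genes had an edgeR p below 0.05.

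The same 6 libraries gave 9 calls among 13 tested alpha genes, all higher, with a median log2 fold change of 4.43, and 0 calls among 22 tested gamma genes, with a median of 0.14. Of all tested genes 0.577% were called in either direction. By smallest p the alpha list was led by Pcdha6 (5.05 ± 0.39), Pcdha8 (4.43 ± 0.36) and Pcdha5 (5.71 ± 0.49, from 3 wild type counts). The other alpha genes that passed were Pcdha1, Pcdha2, Pcdha3, Pcdha7, Pcdha9 and Pcdha10. The gamma list was led by Pcdhgb6 (-0.80 ± 0.16), Pcdhgb4 (0.51 ± 0.12) and Pcdhga12 (-0.77 ± 0.18), none of which passed.

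Since these genes are used by neurons, neuronal markers were read in the same libraries. Of 14 tested markers 1 was called higher, the neurofilament gene Nefl (0.72 ± 0.18 CPM in wild type against 2.56 ± 0.52 CPM in null). Of all tested genes 0.507% were called higher and 0.577% in either direction. Nefm (0.71 ± 0.17) and Gad1 (1.64 ± 0.40), the gene of a GABA-making enzyme, came next by p without passing. The summed level of the 19 markers was 1587 to 1616 CPM in wild type against 1489 to 1525 CPM in null, most of it from Map2 and Gap43. Slc17a6, a marker of excitatory neurons, had 0 counts in every library. Markers of oligodendrocyte lineage (9 tested), astrocytes (6), microglia (1), vessels (1), fibroblasts (2) and red cells (1) gave 0 calls. The smallest p values belonged to Gja1, Gfap and S100b in the astrocyte list, and to Hes1, Nes and Prom1 among the 12 stem cell markers, which also gave 0 calls. The summed levels, of which the highest was that of wild type replicate 3, were 1164 to 1676 CPM in wild type against 1481 to 1573 CPM in null for the oligodendrocyte list, and 302 to 333 and 288 to 306 CPM for the astrocyte list. They were at most 3.37 CPM in any library for each of the other 4 lists.

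Wild type replicate 3 also stood with the null libraries in glial markers. Pdgfra, the receptor gene that marks oligodendrocyte precursors, had 17.1, 18.3 and 167 CPM in wild type replicates 1, 2 and 3, and 112.6, 128 and 137 CPM in the null libraries. Sox10, a transcription factor gene of that lineage, had 0.543, 0.426 and 7.24 CPM in wild type and 3.01, 3.75 and 3.39 CPM in null. Wild type replicates 1 and 2 were thus several times lower than all 4 other libraries for both genes. Mbp, a myelin gene, ran the same way (0.271, 0.256 and 2.18 CPM, then 1.64, 1.45 and 1.65 CPM), as did Dcx, a gene of young neurons (0.814, 0.384 and 5.56 CPM, then 3.19, 4.03 and 4.15 CPM). Wild type replicates 1 and 2 were both below the other 4 libraries for 8 of 9 tested oligodendrocyte lineage markers, 4 of 6 astrocyte markers and 8 of 14 neuronal markers, against 26.8% of all tested genes. In the opposite direction, both were above the other 4 for 0 of 9, 1 of 6 and 4 of 14 of these markers, against 26.1% of all tested genes. For all 8 beta genes, each null library was above each wild type library. Wild type replicates 1 and 2 were therefore below the other 4 wherever replicate 3 was the highest wild type library, as for 7 of the 8. The 8 genes summed to 6.32, 6.35 and 11.2 CPM in wild type replicates 1, 2 and 3. In the null libraries they summed to 50.9 to 51.9 CPM. The part of any of these cells in the rise of the 8 genes was not tested.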

How the data were processed

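RNA of 3 wild type and 3 Smchd1 null libraries was sequenced from 1 µg of total RNA each with the TruSeq RNA v2 kit, per the labels' protocols. The deposited values are raw counts per Entrez gene, with a gene length in bases. The submitters' processing notes list featureCounts, CASAVA 1.8.2, limma 3.22.0 and edgeR 3.8.2, and build mm10. Symbols came from a RefSeq table of GRCm38.p6, which matched 25275 of 27179 IDs. The test was that of edgeR 4.0.16 under R 4.3.3 (filterByExpr, TMM, robust quasi-likelihood F-test, genotype as the only term, Benjamini-Hochberg over 14207 genes, threshold 0.05). The SE is the log2 fold change over the root of F. RPKM is CPM per kb of deposited length. Alternatives used DESeq2 1.42.0, limma 3.58.1 (voom), other scalings and filters, thinning, added terms and left-out libraries. The fit was tested on simulated data. The genes and lists were chosen with earlier results of these data known. Named genes are the 8, the 3 with the smallest p of each list (those of the oligodendrocyte list are not all reported here, and lists with under 3 tested genes are given by counts) and any of a list that passed, Smchd1, and the 5 genes with the closest profile of log2(CPM + 0.5), while Ctcf, Slc17a6, Pdgfra, Sox10, Mbp, Dcx, Map2, Gap43 and Ptk2 were chosen after their values were seen.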

Additional observations from a re-analysis of the deposited data

How the results depend on the processing

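Each of the 8 genes kept a positive log2 fold change under every one of the 20 alternatives that tested it (Pcdhb1 was not tested under the stricter filter, and its DESeq2 adjusted p was not defined). All 8 calls held under 10 alternatives and at least 7 under 15, and the calls numbered 4 to 8 when 1 library was left out, with 4 to 12 for Pcdhb9 to Pcdhb22. The 8 and the 12 came without wild type replicate 3, where 19.7% of all tested genes were called higher. Without any other library that share was 0.202% to 0.291%. The count of called genes over the whole table moved more. It was 177 higher and 221 lower with DESeq2, 2700 and 2468 with voom quality weights, 163 and 59 without a filter, and 126 and 250 with only the libraries named 11 to 14. With voom 23 were lower, and with the sample-name term 109. Leaving out 1 library gave 29 to 2857 higher and 1 to 2819 lower, the highest of each without wild type replicate 3. With total counts only, 454 were higher and 3 lower, the median of all genes moved to 0.32, and the median of the 8 lay 3.15 above it. The difference in share of beta counts was 11.7 to 12.99 percentage points with 1 library left out. No label says that the replicate numbers pair the libraries. The correlations of same-numbered deviations were 0.0012, 0.018 and -0.056. With 3 libraries per group and wild type replicate 3 far from the others, these values cannot decide whether libraries were paired. With the replicate block 7 of the 8 were called, and 48 genes were higher and 6 lower in all. The cause of these changes was not tested. Depth limits Pcdhb1 most, with 1 wild type count in all.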

Other observations

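The genes outside the clustered protocadherins whose profile over the 6 libraries lay closest to the mean profile of Pcdhb1 to Pcdhb8 were AW551984 on chromosome 9, 5730507C01Rik on chromosome 12, Klhl4 on chromosome X, A330076H08Rik on chromosome 7 and Dcaf12l1 on chromosome X. Likeness was the root mean square distance between centred log2(CPM + 0.5) profiles, which was 0.116 for AW551984, 0.17 for 5730507C01Rik, 0.172 for Klhl4, 0.223 for A330076H08Rik and 0.228 for Dcaf12l1. Within the set it ran from 0.166 for Pcdhb5 to 0.498 for Pcdhb1, whose levels are near the added constant. Like the 8 genes, these 5 were scarce in wild type, at 0.168 ± 0.115 CPM for AW551984 and 1.47 ± 0.72 CPM for A330076H08Rik, against 2.20 ± 0.28 and 6.32 ± 0.70 CPM in null. Klhl4, a kelch family gene, went from 0.994 ± 0.197 CPM to 5.81 ± 0.44 CPM with Smchd1 lost. Dcaf12l1 stood at 0.867 ± 0.046 and 4.50 ± 0.46 CPM, and 5730507C01Rik at 0.259 ± 0.077 and 2.83 ± 0.30 CPM (mean ± SD, n = 3). Since they were chosen for this pattern, their levels are a description.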
